A study of Mus musculus with 6 samples.

Results

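The miRNA genes miR-142, miR-150, miR-223 and miR-342, whose products are abundant in white blood cells, were followed in epididymal white adipose tissue (WAT). They were chosen by row name, every arm listed, and this gave 8 of the 1983 rows of the deposited table. An arm is the strand of the hairpin, 5p or 3p, from which a mature miRNA is cut. Of the 8 rows, 6 were above the lowest value of the table (the floor, 10 reads per 10000000) in at least 3 of the 6 libraries, and in fact in all 6. The other 2, miR-150-3p and miR-223-5p, stood at the floor in all 6 libraries. Male C57BL6/J mice of 2 genotypes were compared, 3 wild type (Wt) and 3 angiotensinogen transgenic (Agt Tg), with 1 small RNA library per mouse. Agt Tg mice overexpress angiotensinogen, the precursor of angiotensin II, in adipose tissue under the aP2 promoter, which is best known as a fat cell promoter and is also active in macrophages. The labels give a chow diet for both genotypes, whereas the methods of the study describe a low fat diet. The question for these miRNAs was whether their level in WAT differed with overexpression of the renin–angiotensin system in that tissue.

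WAT holds fat cells together with vessels, fibroblasts and resident or infiltrating leukocytes, and the leukocyte content of the tissue is known to vary with obesity. Mature miRNAs guide Argonaute proteins to messenger RNAs through the seed, bases 2 to 8 from the 5′ end. miR-142 is made in nearly all blood cell lineages and serves as a general mark of haematopoietic cells. miR-150 is abundant in mature B and T lymphocytes and is known to restrain Myb. miR-223 is abundant in neutrophils, monocytes and platelets and restrains granulocyte production. miR-342 lies inside the gene Evl, is found in lymphocytes and in other leukocytes, and is also present outside the blood.

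The 5 mature sequences that were at hand share no seed, so that each of these 5 would read a different set of target sites. RefSeq (GRCm38.p6) held the mouse sequence for 5 of the 6 described rows, and they are given 5′ to 3′ with the seed in capitals. The row names of the table are human, and the mouse miRNA of the same number and arm is shown.
miR-142a-5p: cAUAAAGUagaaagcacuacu
miR-142a-3p: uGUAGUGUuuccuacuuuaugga
miR-223-3p: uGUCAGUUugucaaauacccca
miR-342-3p: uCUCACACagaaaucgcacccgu
miR-342-5p: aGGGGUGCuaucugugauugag
The described row without a printed sequence is miR-150-5p, and its seed was not compared with the others. The 5 sequences are 21 to 23 bases long and carry 5 distinct seeds, and 0 other mouse mature miRNAs in the RefSeq table share any of them. Of the 5, 3 begin with U, the base that Argonaute prefers at the 5′ end, compared with 40.9% of 1679 mouse mature miRNAs.

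The genes lie apart in the mouse genome (GRCm38, annotation GENCODE M21). Mir142 is on the plus strand at chr11:87756864-87756927, in an intron of the lincRNA gene Mir142hg, and its arms are at chr11:87756867-87756887 (5p) and chr11:87756903-87756925 (3p). Mir142b overlaps it on the minus strand, and the mature miR-142b is the reverse complement of bases 4 to 23 of miR-142a-3p. Whether the mapping used strand is not given in the sources used here, and miR-142b was not analysed here. Mir150 is at chr7:45121757-45121821 on the plus strand, and no other annotated gene overlaps it. Mir223 is at chrX:96242817-96242926 on the plus strand, and 2 annotated exons of the noncoding gene F630028O10Rik overlap it. Mir342 is at chr12:108658620-108658718 on the plus strand, in an intron of Evl, which encodes a regulator of the actin cytoskeleton and runs from 108554720 to 108688516.

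Values are the deposited log2 reads per 10000000, and library totals recovered from them lay between 6387766 and 10562634 reads. Wt replicate 2 stood apart through epithelial miRNAs, with 8 of the 9 tested rows of an epithelial list more than 2 (log2) above every other library there. None of the 6 leukocyte rows was so placed in any library, and the differences between genotypes are given with and without that mouse. Of a list of adipocyte miRNAs, read against the tissue label, 12 of 15 listed rows were tested, with a summed level of 546153 to 764713 reads per 10000000. No leukocyte row shared all its values with another row.

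The 6 leukocyte rows spanned a wide range of levels, from miR-150-5p and miR-142-5p at the top to miR-342-5p near the floor. Ranked by mean log2 level among the 329 miRNAs tested, miR-150-5p was at rank 34, miR-142-5p at 44, miR-342-3p at 77, miR-223-3p at 113, miR-142-3p at 139 and miR-342-5p at 235. This order was the same within each of the 6 libraries. Neighbours came close in single libraries. miR-142-3p minus miR-223-3p lay between −1.56 and −0.05 (log2), and in Wt replicate 2, with 622 and 644 reads, they could not be told apart beyond counting error. For the top neighbours, miR-142-5p minus miR-150-5p ran from −1.40 to −0.06, and its mean was −0.60 ± 0.09 in Wt and −0.90 ± 0.73 in Agt Tg mice (SD, n = 3). Together the 6 rows took between 0.536% (95% exact binomial interval 0.53 to 0.542, Agt Tg replicate 3) and 0.833% (0.824 to 0.842, Wt replicate 1) of the reads on listed miRNAs. These intervals cover counting error only.

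**Figure D1:**
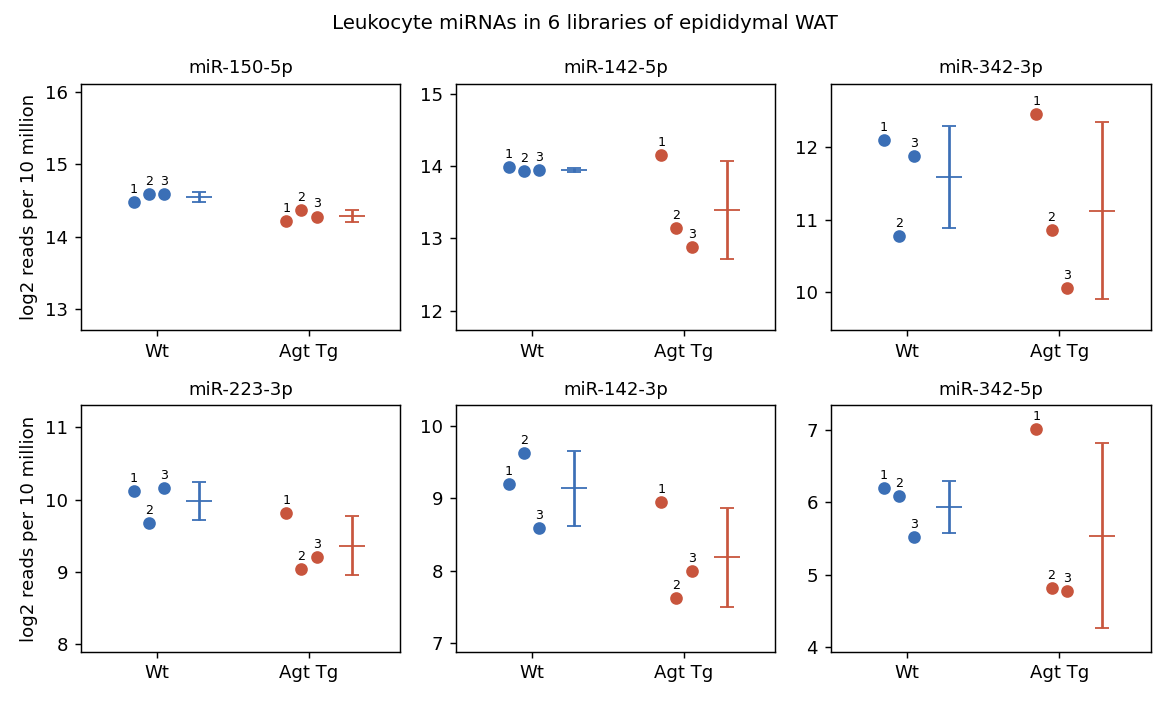
Log2 reads per 10000000 (y axis, the same span in each panel) of the 6 leukocyte miRNAs in 3 Wt and 3 Agt Tg libraries. Points are libraries with their replicate number, and bars are the mean ± SD; Agt Tg replicate 1 is the highest Agt Tg library in every panel except that of miR-150-5p.

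None of the 6 leukocyte rows passed the test between genotypes, although each had a lower mean in Agt Tg compared to Wt mice. With limma and Benjamini-Hochberg adjustment over 329 miRNAs, 0 of the 6 rows and 0% of all miRNAs had an adjusted p under 0.05, and the smallest adjusted p among the 6 was 0.531. At an unadjusted p of at most 0.05 there were again 0 of the 6, compared with 30 of the 329 (9.12%), and where such a p went with a log2 difference of 1 or more in either direction (the study's threshold, its fold change read as log2), 0 of the 6 and 4.86%. limma-voom likewise called 0 of the 6 by either measure of p, and 28 of the 329 at an unadjusted p of at most 0.05. A lower mean in Agt Tg mice was found in 6 of 6 rows and in 67.5% of all miRNAs tested. The 6 rows are arms of 4 genes measured in the same 6 libraries, so that they are not 6 independent observations. The median log2 fold change was −0.51 over the 6 rows and −0.19 over all 329. Scaling by TMM (trimmed mean of M values) moved every row up by the same 0.11. The median over all 329 was then −0.08, and the 6 rows ran from −0.85 (miR-142-3p) to −0.16 (miR-150-5p). Relative to the median of all miRNAs, the 6 differences ran from −0.77 to −0.08. In bulk tissue, fewer cells of a type and less miRNA per cell cannot be told apart. Nothing in the labels names separate litters or housing for the mice, so that the p-values measure the spread between these 6 mice.

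**Figure D2:**
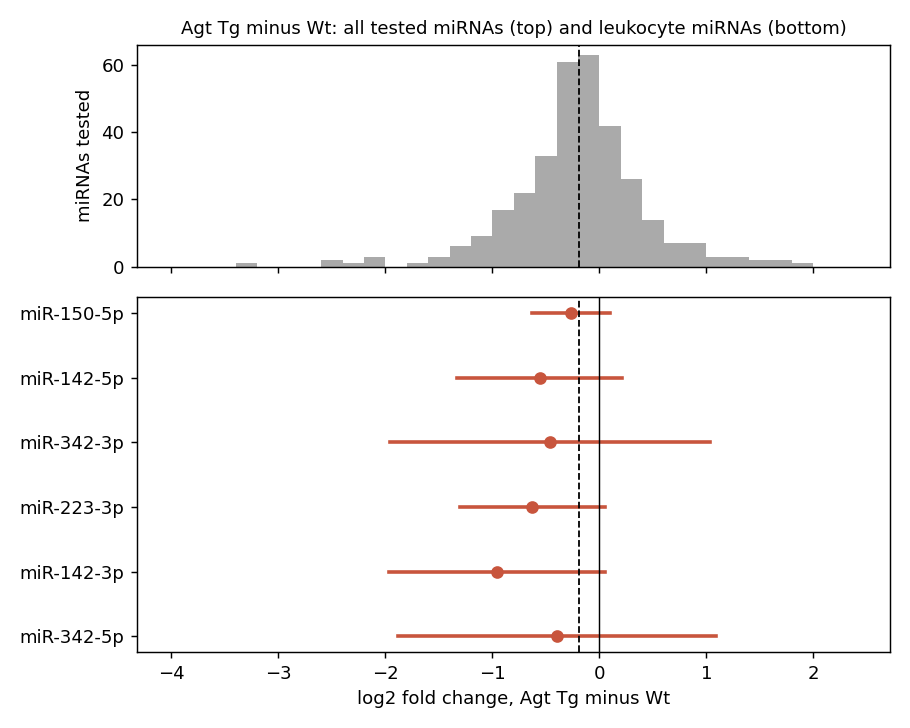
Histogram of the log2 fold change, Agt Tg minus Wt, of the 329 miRNAs tested (top), and the log2 fold change of each leukocyte miRNA with its 95% interval from limma (bottom). The dashed line is the median of all miRNAs, −0.19; all 6 points lie left of 0 and all 6 intervals include 0.

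miR-142-5p, the arm of miR-142 with most reads, was, as deposited, nearly constant in Wt mice and spread widely in Agt Tg mice. Its log2 levels were 13.98, 13.93 and 13.95 in Wt replicates 1, 2 and 3, and 14.15, 13.14 and 12.88 in Agt Tg replicates 1, 2 and 3. Agt Tg replicate 1 therefore lay above every Wt library and the other 2 Agt Tg libraries below every one. The means were 13.95 ± 0.03 in Wt and 13.39 ± 0.67 in Agt Tg (SD, n = 3). They differed by −0.56 on the log2 scale (standard error 0.33, 95% interval −1.33 to 0.21, limma adjusted p = 0.553). With 5777 to 18884 reads per library, counting error alone had an SD of at most 0.02 (log2).

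miR-142-3p, the partner strand from the same hairpin, had the largest mean difference of the 6 rows. Its log2 levels were 9.20, 9.63 and 8.60 in the Wt libraries and 8.95, 7.62 and 7.998 in the Agt Tg libraries. The genotypes overlapped only through Agt Tg replicate 1, which lay above Wt replicate 3. The log2 fold change was −0.95 (standard error 0.43, 95% interval −1.96 to 0.06, limma adjusted p = 0.531), on 380 to 622 reads in Wt and 126 to 511 in Agt Tg libraries.

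miR-150-5p, the lymphocyte miRNA, was the most abundant of the 6 and, as deposited, the steadiest within genotype. Its log2 levels were 14.47, 14.59 and 14.60 in Wt and 14.21, 14.37 and 14.28 in Agt Tg libraries, so that every Agt Tg library lay below every Wt library. It was the only 1 of the 6 rows whose genotypes did not overlap, compared with 10.6% of all miRNAs that were lower without overlap and 17.6% without overlap in either direction. The difference was small, −0.26 (standard error 0.15, 95% interval −0.63 to 0.10, limma adjusted p = 0.553), and an exact two-sided permutation test gave p = 0.1, the smallest that 3 against 3 allow. Every row without overlap gets this p, so that it adds nothing to the lack of overlap. The lack of overlap depended on the scaling. It held when the libraries were scaled to the sum of listed miRNAs, where the lowest Wt library was 0.04 above the highest Agt Tg library, and was lost under TMM scaling (−0.12) and under scaling to miR-191-5p (−0.26), where 13.1% and 13.4% of all miRNAs did not overlap in either direction. On the sum of listed miRNAs this share was 13.7%. miR-191-5p was the reference miRNA of the study's RT-qPCR.

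miR-223-3p, the myeloid miRNA, had log2 levels of 10.12, 9.68 and 10.15 in Wt and 9.82, 9.05 and 9.21 in Agt Tg libraries. Agt Tg replicates 2 and 3 were the lowest of the 6, and Agt Tg replicate 1 lay between Wt replicate 2 and the other Wt libraries. The log2 fold change was −0.63 (standard error 0.29, 95% interval −1.30 to 0.05, limma adjusted p = 0.531), with 338 to 1119 reads per library. When the libraries were scaled to miR-191-5p, miR-223-3p was instead the 1 row of the 6 whose genotypes did not overlap, compared with 13.4% of all miRNAs.

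miR-342-3p, the main arm of the Evl intron miRNA, varied widely within both genotypes. Its log2 levels were 12.10, 10.78 and 11.88 in Wt libraries and 12.46, 10.86 and 10.06 in Agt Tg libraries. Agt Tg replicate 1 was the highest and Agt Tg replicate 3 the lowest of all 6, while Wt replicate 2 was below Agt Tg replicate 2. The difference of −0.46 (standard error 0.63, limma adjusted p = 0.757) had a 95% interval from −1.96 to 1.03, that is, from 0.258 to 2.04 times the Wt level. Without Agt Tg replicate 3 the sign changed, to 0.07.

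miR-342-5p, the minor arm, was the only described row with few reads, 45 to 55 in Wt libraries and 134, 18 and 29 in Agt Tg replicates 1, 2 and 3. Its log2 levels were 6.20, 6.08 and 5.52 in Wt and 7.01, 4.82 and 4.78 in Agt Tg libraries. As for miR-142-5p, Agt Tg replicate 1 lay above and the other 2 Agt Tg libraries below all Wt libraries. Counting error had an SD of 0.34 (log2) at 18 reads, and the log2 fold change was −0.40 (standard error 0.63, 95% interval −1.88 to 1.09, limma adjusted p = 0.782).

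Spread within a genotype set miR-150-5p apart from the others. Its SD within genotype, pooled over Wt and Agt Tg, was 0.074 (log2), and 0% of the 329 miRNAs had a smaller one, whereas the median over all was 0.406. On other scales it was at rank 2 of 329 from the smallest (sum of listed miRNAs), at 13 (TMM) and at 88 (miR-191-5p), where miR-223-3p, with 0.252 against 0.348, was the steadier row. For miR-342-3p and miR-342-5p the pooled SD was 0.997 and 0.941, larger than in 93% and 91.2% of the miRNAs. Against miR-191-5p they were 0.782 and 0.940. As deposited, the SD among Agt Tg mice exceeded that among Wt mice in all 6 leukocyte rows and in 45% of all miRNAs tested. For miR-142-5p it was 0.671 against 0.027, and for miR-150-5p 0.080 against 0.067. This depended on the scaling. Against miR-191-5p, miR-150-5p ran from −2.81 to −1.99 in Wt and from −3.01 to −2.55 in Agt Tg libraries. For miR-142-3p the ranges were −8.81 to −6.95 and −9.43 to −8.28. In both rows the Wt range was then the wider, and in the other leukocyte rows the Agt Tg range was. With 3 mice per genotype no test of these spreads was made.

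**Figure D3:**
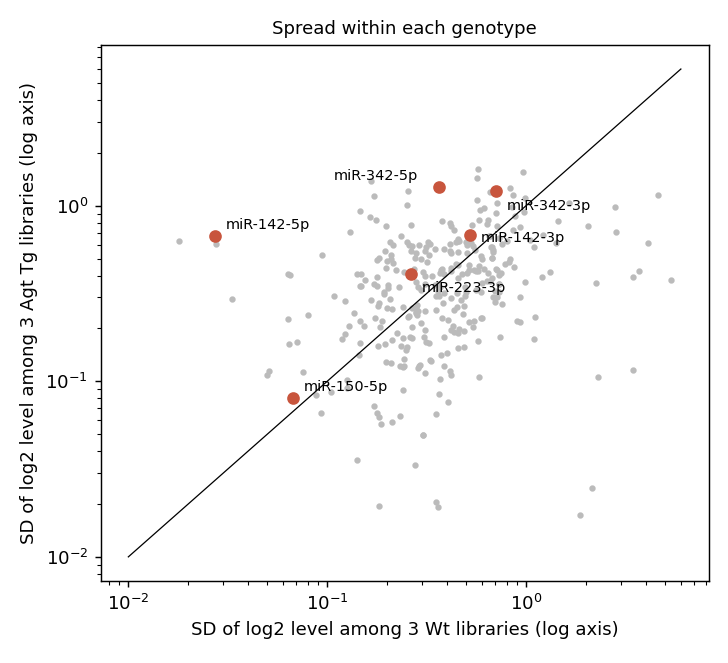
SD of the log2 level, as deposited, among the 3 Wt libraries (x axis) and among the 3 Agt Tg libraries (y axis), both on log axes. Grey points are 324 of the 329 miRNAs tested (5 with an SD of 0 cannot be drawn), red points the leukocyte miRNAs, all of which lie above the line of equal spread.

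Seen by library, Agt Tg replicates 2 and 3 were low in the leukocyte miRNAs and Agt Tg replicate 1 was not. For each row the mean of the 6 libraries was subtracted. In Agt Tg replicate 2, 0 of the 6 rows were above their own mean (median −0.58, from −1.04 to −0.05), compared with 32.2% of all miRNAs tested. In Agt Tg replicate 3 it was again 0 of 6 (median −0.73, from −1.30 to −0.14), compared with 39.8%. In Agt Tg replicate 1 it was 5 of 6 (median 0.38), all but miR-150-5p, which was at −0.21 there, compared with 55.3% of all miRNAs. Wt replicate 1 had 6 of 6 above (61.7% of all), Wt replicate 2 had 5 with miR-342-3p at −0.57 (48.9%), and Wt replicate 3 had 4 (53.2%). Agt Tg replicate 2 had the lowest total of reads, 6387766, and Agt Tg replicate 3 the highest, 10562634.

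**Figure D4:**
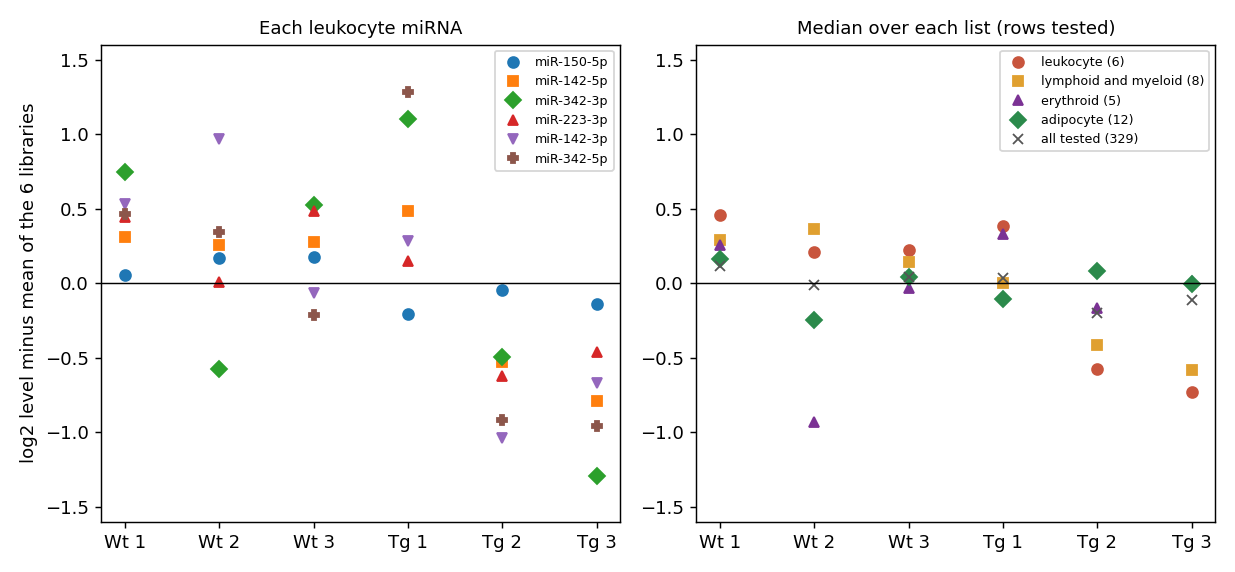
Log2 level minus the mean of the 6 libraries (y axis) in each library (x axis, Tg for Agt Tg), for each leukocyte miRNA (left) and as the median of 4 lists of miRNAs and of all miRNAs tested (right, with the number of rows). The leukocyte median lies between 0.21 and 0.46 in the Wt libraries and Agt Tg replicate 1 and at −0.58 and −0.73 in Agt Tg replicates 2 and 3.

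The differences between genotypes moved with which Agt Tg library was included. Without Agt Tg replicate 1, limma gave −1.33 for miR-142-3p, −1.13 for miR-342-5p, −0.94 for miR-142-5p and −0.86 for miR-223-3p, each with an adjusted p = 0.187. The other differences were −1.13 for miR-342-3p (adjusted p = 0.304) and −0.23 for miR-150-5p (adjusted p = 0.501). At an unadjusted p of at most 0.05 there were then 4 of the 6, compared with 16.1% of all miRNAs, and 2 of the 6, miR-142-3p and miR-342-5p, also differed by at least 1 (10.6%). Without Wt replicate 2, the differences were −0.71 for miR-142-3p, −0.57 for miR-142-5p, −0.25 for miR-150-5p, −0.78 for miR-223-3p, −0.87 for miR-342-3p and −0.32 for miR-342-5p, and 1 of the 6, miR-223-3p, had an unadjusted p of at most 0.05 (adjusted p = 0.299), compared with 14.6% of all miRNAs. Leaving out Wt replicate 3 brought 1 of the 6, miR-142-3p (−1.23, adjusted p = 0.583), past the threshold of p and fold change, compared with 6.69% of all miRNAs. Leaving out Agt Tg replicate 2 or 3 brought most differences nearer to 0. Without replicate 2, miR-342-5p was at −0.036 and miR-142-3p at −0.67. Without replicate 3, miR-342-5p was at −0.017, miR-142-5p at −0.30 and miR-342-3p at 0.069. At an unadjusted p of at most 0.05 there were 0 of the 6 in either, compared with 6.38% and 5.47% of all miRNAs.

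The arms of a hairpin are made in equal numbers, and 1 is usually kept. Only reads were counted here, and how much of each arm was kept was not measured. For miR-142 the 5p arm had more reads, with 27.6, 19.6 and 40.8 times the reads of the 3p arm in Wt replicates 1, 2 and 3, and 37.0, 45.8 and 29.5 times in Agt Tg replicates 1, 2 and 3. The log2 difference, 5p minus 3p, was 4.81 ± 0.53 in Wt and 5.20 ± 0.32 in Agt Tg (SD, n = 3), and the ranges overlapped (exact two-sided permutation test, p = 0.4). For miR-342 it was the 3p arm, with 59.9, 26.1 and 82.3 times the reads of the 5p arm in Wt and 43.5, 66.0 and 38.9 times in Agt Tg libraries. Its 5p minus 3p difference was −5.66 ± 0.86 in Wt and −5.59 ± 0.40 in Agt Tg (SD, n = 3), again with overlap (exact two-sided permutation test, p = 1). Such a difference within a library does not depend on how the library was scaled. Of the arms at the floor, miR-150-3p lay at least 10.89 (log2) below its partner in every library and miR-223-5p at least 5.73 below. The row names are human, and the species of the miRBase sequences used for mapping is not given in the sources used here. Whether this lowered the reads of an arm was not tested. The floor stood for 6.39 to 10.6 reads.

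**Figure D5:**
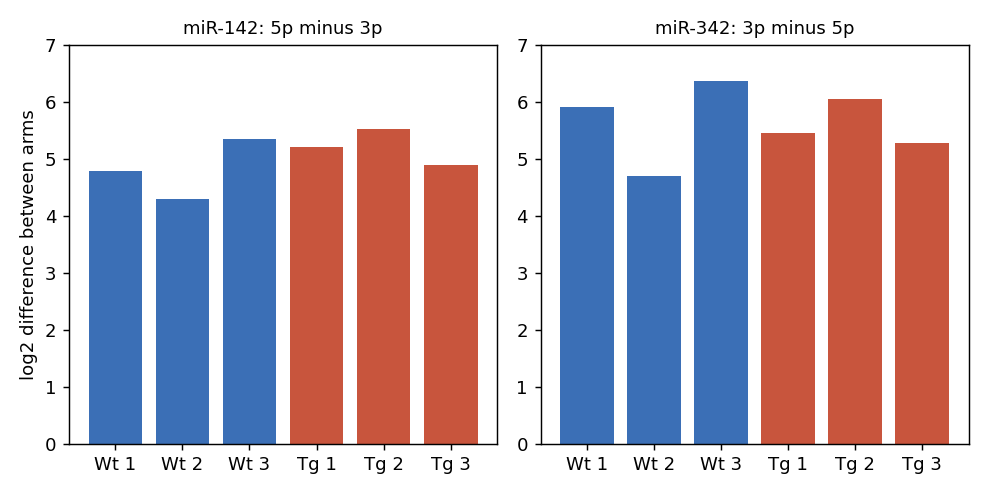
Log2 difference between the more and the less abundant arm of miR-142 (left, 5p minus 3p) and miR-342 (right, 3p minus 5p) in each library (blue, Wt; red, Agt Tg). The difference lay between 4.30 and 5.52 for miR-142 and between 4.70 and 6.36 for miR-342, with the genotypes overlapping in both.

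The balance among the leukocyte miRNAs also differed between mice. miR-150-5p made up 42.8% of the reads on the 6 rows in Agt Tg replicate 1 (95% exact binomial interval 42.4 to 43.3) and 67.7% in Agt Tg replicate 3 (67.2 to 68.2), with the 3 Wt libraries between 50.5% and 56.4%. miR-342-3p made up 12.7% in Agt Tg replicate 1 (12.4 to 13) and 3.64% in Agt Tg replicate 3 (3.43 to 3.85). Among the 15 pairs of rows, miR-142-5p and miR-223-3p kept the steadiest proportion, with miR-142-5p at 12.7 to 20.2 times the reads of miR-223-3p (SD of the log2 difference over the 6 libraries 0.26). The least steady pair was miR-150-5p and miR-342-3p, at 3.38 to 18.6 times (SD 0.94). The genotypes overlapped in both proportions.

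Rows of other miRNAs that kept a steadier proportion were named by the same SD over the 6 libraries, 3 for the main arm of each gene, as a description. For miR-142-5p they were miR-221-3p (SD 0.14), miR-18a-5p (0.17) and miR-214-3p (0.20), compared with a median of 0.59 over all miRNAs tested. For miR-223-3p they were miR-361-3p (0.05), miR-212-3p (0.11) and miR-411-3p (0.18), with a median of 0.55. For miR-342-3p they were miR-221-5p (0.25), miR-433 (0.30) and miR-369-5p (0.30), with a median of 0.97. For miR-150-5p they were miR-29a-3p (0.06), miR-10a-5p (0.08) and miR-93-5p (0.11), with a median of 0.46, and these rows hardly varied over the 6 libraries themselves (SD 0.13 to 0.15). None of the 12 was a leukocyte row, and the nearest leukocyte row to miR-142-5p was miR-223-3p, at rank 10 of the other tested rows. Of the 12, miR-18a-5p and miR-369-5p lay nearest the floor (3.32, log2), with mean log2 levels of 4.09 and 4.58. The floor limits how far such rows can fall, so that their SD is not a plain measure of a kept proportion.

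Another list of immune cell miRNAs was not low in the same way in each row. The list held miR-146a and miR-146b, which dampen signalling to NF-κB, the miR-181 family, which tunes lymphocyte receptor signalling, and miR-155. It had 8 of 14 listed rows tested, and miR-155 was not among the 8. In Agt Tg mice 8 of the 8 had a lower mean and 0 had an adjusted p under 0.05 (limma, smallest adjusted p = 0.531), with a median log2 fold change of −0.64, and without Wt replicate 2 of −0.46 with 8 of the 8 again lower. Over all miRNAs tested, 222 of the 329 (67.5%) had a lower mean, and 216 of the 329 without Wt replicate 2. miR-146b-5p had log2 levels of 11.66, 11.29 and 12.12 in Wt and 11.79, 10.60 and 10.29 in Agt Tg libraries, with Agt Tg replicate 1 among the Wt libraries. miR-181a-5p, the most abundant of the 8, had 17.49, 16.88 and 17.54 in Wt and 16.85, 16.87 and 17.00 in Agt Tg libraries, with Agt Tg replicate 1 the lowest of the 6. miR-181b-5p was at 12.65 in Agt Tg replicate 1, below its 3 Wt libraries (12.81 to 13.07). The median deviation of the 8 rows was 0.00 in Agt Tg replicate 1, −0.42 in replicate 2 and −0.58 in replicate 3. Their summed level, most of it miR-181a-5p, was 135830, 131796 and 144093 reads per 10000000 there. In Wt replicates 1, 2 and 3 it was 203574, 149284 and 209185. With all 6 libraries the differences ran from −1.29 (miR-181c-3p) to −0.27 (miR-181a-3p). Without Wt replicate 2, where miR-181c-3p stood at 9.11 against 7.45 and 7.03 in the other Wt libraries, they ran from −1.001 (miR-146b-5p) to −0.12 (miR-181d), and miR-181c-3p was at −0.67. miR-181 and miR-146 are also made by cells other than leukocytes.

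Lists of other cell types differed between the libraries, and their part in the leukocyte values was not tested. For 4 of these lists the direction rested on Wt replicate 2, so each median is given with and without it, and 0 rows of any had an adjusted p under 0.05 either way. Over all 329 miRNAs tested, 222 had a lower mean in Agt Tg mice (median −0.19), and without Wt replicate 2 there were 216 lower and 113 higher (median −0.18). The erythroid list (miR-451a, miR-144 and miR-486, the miRNAs of red cells, which reach tissue with blood) had a median log2 fold change of 0.40, with 5 of 5 rows higher in mean in Agt Tg mice, and of −0.054 without Wt replicate 2, with 2 of 5 higher. Its summed level was 172010, 50991 and 177232 reads per 10000000 in Wt and 208134, 111087 and 93203 in Agt Tg libraries, so that Agt Tg replicates 2 and 3, the libraries low in leukocyte miRNAs, were between Wt replicate 2 and the other Wt libraries. The adipocyte list had a median of 0.09, and of −0.14 without Wt replicate 2. The fibroblast list was lower in mean in 5 of 5 rows both ways, with a median of −0.50 and of −0.25. Its rows miR-199a-3p and miR-199b-3p had the same log2 fold change (−0.38) and the same SD in each genotype, so that they are not separate measurements. The epithelial list had a median of −2.17, and of 0.046 without Wt replicate 2. The muscle list had 1 tested row, at −0.51 and at 0.012. The endothelial miR-126 was higher in mean in 2 of 2 rows both ways, with a median of 0.23 and of 0.16. Over the 6 leukocyte rows the median was −0.51, and −0.64 without Wt replicate 2. Their summed level was 43610 to 45885 reads per 10000000 in the 3 Wt libraries and 44347, 32863 and 29377 in Agt Tg replicates 1, 2 and 3.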

How the data were processed

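Small RNA of epididymal WAT from 3 Wt and 3 Agt Tg mice was sequenced. The authors mapped reads to miRBase precursors, counted them per mature miRNA and, as 1 table, deposited log2 values, which were found here to be reads per 10000000 of a library total with a floor of 10. All 1924 values above the floor were whole reads within 0.02 reads, which gave the totals. Mapping to GRCm38 is also stated, and the submitters' processing notes name mm10. No miRBase release is stated. Each value column was matched to a sample label.

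Rows above the floor in at least 3 of 6 libraries (329) were fitted with limma 3.58.1 (R 4.3.3, variance trend, genotype as the only term) on the deposited log2 values, with Benjamini-Hochberg adjustment over all of them. Standard errors and intervals are those of limma. Exact permutation tests were two-sided. Alternatives were log2(value + 1), TMM scaling, scaling to the sum of listed miRNAs or to miR-191-5p, limma-voom, no filter, a filter at a mean of 10 CPM, the replicate number as a block, and leaving out each library. The fit was first tested on simulated data.

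The members and lists were chosen with earlier results of these data known. Rows named were every arm of the 4 genes, list members, and for each gene the 3 rows whose log2 difference from its main arm had the smallest SD. Figures were drawn with matplotlib 3.10.9 (Python 3.11.15).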

Additional observations from a re-analysis of the deposited data

How the results depend on the processing

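The 6 leukocyte rows gave 83 values under 14 alternatives, and 82 of them kept their direction. The exception was miR-342-3p, at 0.069 when Agt Tg replicate 3 was left out (−1.13 to 0.069 over the 6 such fits). None of the 6 had an adjusted p under 0.05 under any of the alternatives, and miR-342-5p was not tested under the filter at a mean of 10 CPM. The count of leukocyte rows at the threshold of p and fold change was 0 to 2 with each library left out. Over all miRNAs this count was 16 (9 higher, 7 lower), 3 with that filter, 12 to 35 with each library left out, and under TMM scaling 15 (10 higher, 5 lower). The difference in miR-342 arms, 0.07, had the opposite sign when Wt replicate 1 (−0.06) or 3 (−0.29), or Agt Tg replicate 1 (−0.01) or 3 (−0.09), was left out, and lay between −0.29 and 0.54 with each library left out, and that of miR-142 between 0.14 and 0.66. Scaling of miR-150-5p, chosen as an alternative after the data were seen, gave a gap between genotypes of 0.10 as deposited, −0.12 under TMM (0 of the 6 rows without overlap, compared with 13.1% of all miRNAs) and −0.26 against miR-191-5p. Leaving Wt replicate 2 out of the list medians, also chosen after the data were seen, turned the erythroid (−0.054), adipocyte (−0.14), epithelial (0.046) and muscle (0.012) lists.

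Same-numbered libraries of the 2 genotypes showed no common direction of deviation (correlations across miRNAs of 0.22, −0.18 and −0.21), and the numbers were not read as pairs. Deviations were taken from the mean of each genotype, which ties these correlations to each other, so that they cannot decide whether the mice were paired. With the replicate number as a block, miR-142-3p had a log2 fold change of −0.95 (adjusted p = 0.592), 0 leukocyte rows were called and 17 of all miRNAs were at the threshold of p and fold change.

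Depth limited miR-342-5p (18 reads in its lowest library) and the arms at the floor, which stood for 6.39 to 10.6 reads.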
